A study of Mus musculus with 25 samples.

Results

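The mir-17-92 cluster is a group of 6 microRNA hairpins. Its members, mmu-mir-17, mmu-mir-18a, mmu-mir-19a, mmu-mir-20a, mmu-mir-19b-1 and mmu-mir-92a-1 (the mouse prefix is left out below), were taken by name as the 6 rows of these hairpins among the 1193 precursors counted in mouse blood. All 6 had counts in every library, and all 6 were among the 28.3% of precursors that passed the filter on low counts and were tested. Blood was taken from male mice of the inbred strain C57BL/6 at 5 ages of 2, 9, 15, 24 and 30 months, with no treatment or altered allele named. The question was how these small RNAs change as mice grow old. There were 25 libraries, 5 per age, and every library came from an animal with its own number. Whole blood mixes red cells, white cells and platelets, so that fewer cells of a type and less RNA per cell cannot be told apart in any value below.

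Hairpins of this cluster are cut from 1 primary transcript, which the nuclear enzyme Drosha splits into hairpins and the cytoplasmic enzyme Dicer trims to mature microRNAs. A mature microRNA guides Argonaute proteins to messenger RNAs that pair with its seed, the bases near its 5′ end, and lowers their output. The cluster is known for being driven by Myc, for favouring growth and survival of blood cell precursors, for its part in B-cell lymphoma, and for targets such as the pro-apoptotic Bim (mir-17 and mir-92a) and E2F factors (mir-17 and mir-20a).

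All 6 hairpins were found in RefSeq tables of GRCm38.p6, a mouse assembly. They lie head to tail on the plus strand of chromosome 14, from 115043671 to 115044506. The cluster spans 836 bases, with 35 to 96 bases between neighbours, inside exon 2 of the non-coding gene Mir17hg (GENCODE vM21, 115042879 to 115046727). Coordinates refer to that assembly, the build behind the counts being not given in the sources used here. The mature sequences of the main arms are shown so that members with the same seed can be compared, 5′ to 3′ with the seed (bases 2 to 8) in capitals.
miR-17-5p: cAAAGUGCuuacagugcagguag
miR-20a-5p: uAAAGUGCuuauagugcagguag
miR-18a-5p: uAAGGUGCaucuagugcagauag
miR-19a-3p: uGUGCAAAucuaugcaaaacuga
miR-19b-3p: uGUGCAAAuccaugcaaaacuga
miR-92a-3p: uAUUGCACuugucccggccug
The 6 held 4 seeds. miR-17-5p and miR-20a-5p shared a seed and differed at 2 of 23 positions, and miR-19a-3p and miR-19b-3p shared another and differed at 1 of 23. miR-18a-5p differed from miR-20a-5p at 4 of 23 positions, and miR-92a-3p stood alone. The counts are of whole hairpins and do not separate the arms. The hairpins of the pair with the same seed that differed most in its changes are given with the main arm in capitals.
mir-17: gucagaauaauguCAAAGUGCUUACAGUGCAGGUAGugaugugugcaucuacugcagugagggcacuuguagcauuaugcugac
mir-20a: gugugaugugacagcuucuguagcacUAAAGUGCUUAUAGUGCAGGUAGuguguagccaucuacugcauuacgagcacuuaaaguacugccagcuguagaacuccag

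Library totals ran from 4.884 to 24.25 M (mega) counts, and the mean was 18.8 ± 2.81 M (SD, n = 5) for 2 months against 9.89 ± 2.71 M for 30 months. Levels below are CPM, counts scaled to a common library size with factors of the trimmed mean of M-values method (TMM). The lowest count of any member in any library was 109, of mir-20a. Sequencing lanes 3 to 8 were spread unevenly over the ages, with no library of 2 or 30 months in lane 3 and none of 30 months in lane 4. The index sequence of each library cannot be told apart from its age. 2 libraries, 24 months replicate 2 and 30 months replicate 2, stood apart in several members, and values without them stand beside the trends, the 30-month changes and the ratios. Together with 15 months replicate 5 they also had the steepest dependence of level on GC content, at 0.23, 0.26 and 0.20 on the log2 scale per 10% GC, where the other 22 libraries ran from −0.16 to 0.090.

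mir-92a-1 held nearly all counts of the cluster, from 97.1% ± 0.422 of them at 2 months to 97.7% ± 0.439 at 30 months (SD, n = 5 each). Its mean over the 25 libraries was 27077 CPM, followed by 266 CPM for mir-19b-1, 204 CPM for mir-17, 101 CPM for mir-19a, 75.3 CPM for mir-18a and 65.8 CPM for mir-20a. The main arms are 21 to 23 bases long, so this order is nearly one of level per length. mir-19b-1 and mir-17 did not differ beyond their spread at 2 months, with a mean log2 ratio of mir-17 to mir-19b-1 of −0.30 ± 0.61 (SD, n = 5). Nor did mir-18a and mir-20a there, at a log2 ratio of −0.03 ± 0.55. The log2 ratio of mir-17 to mir-19b-1 also differed between lanes. It was 0.317, 0.320 and 0.335 in the lane 3 libraries, of 9, 15 and 24 months. In lane 5 it was −1.08, −1.19, −0.797, −0.741 and −1.69 at 2, 9, 15, 24 and 30 months. Lane 7 ran from −1.80 to 0.414. The part of lane in the spread between libraries was not tested. The cluster as a whole took 2.45% ± 0.156 of all library counts at 2 months and 2.96% ± 0.170 at 30 months, a share set almost wholly by mir-92a-1.

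**Figure D1:**
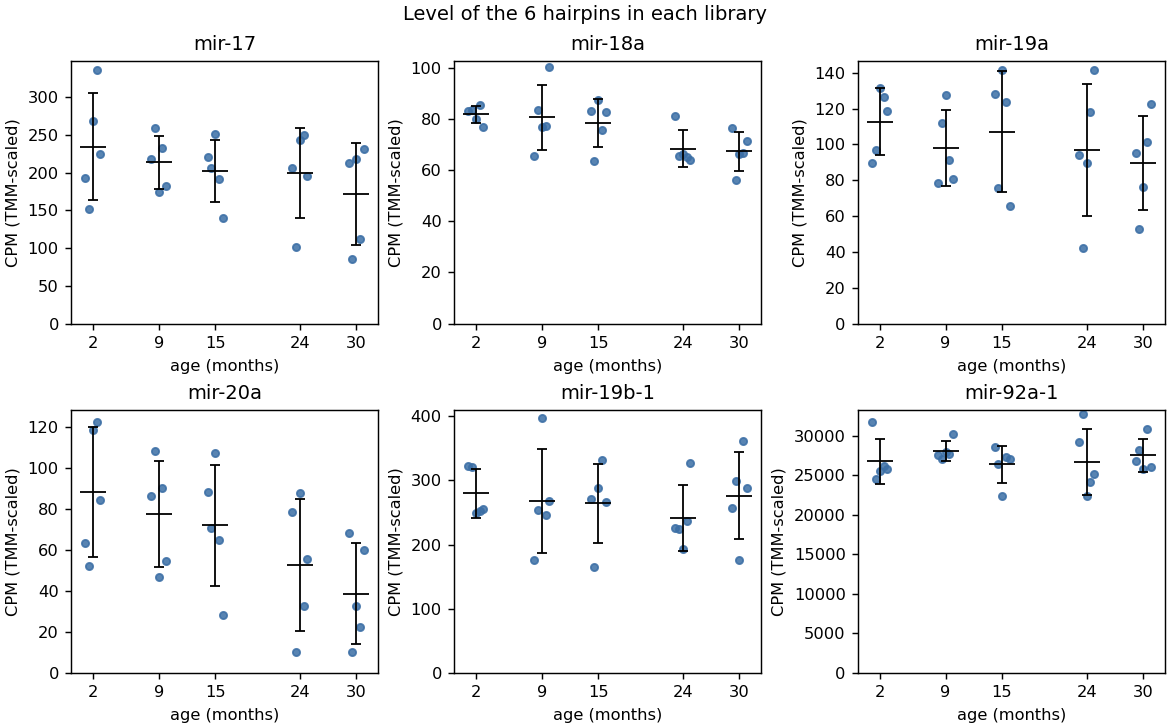
Level of each hairpin (CPM, TMM-scaled, linear axis from 0) in each of the 25 libraries against age in months. Points are libraries, and bars are the mean and SD of 5. mir-20a spans 9.95 to 123 CPM and its mean is lower at each later age, while mir-92a-1 stays between 22401 and 32703 CPM.

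mir-20a, which shares its seed with mir-17, varied most. Its 5 libraries of 2 months held 63.6, 52.1, 119, 123 and 84.6 CPM, and those of 9 months 86.3, 108, 46.6, 90.3 and 54.7 CPM. At 15 months they held 88.5, 70.9, 107, 64.8 and 28.2 CPM. The values were 78.4, 9.95, 87.9, 32.4 and 55.4 CPM at 24 months and 68.2, 10.04, 32.5, 22.2 and 60.1 CPM at 30 months. The 2-month mean was 88.3 ± 31.7 CPM and the 30-month mean 38.6 ± 24.8 CPM, each over 5 libraries with its SD. All 5 libraries of 30 months lay below the 2-month mean, although the groups overlapped. Replicate 2 at 24 months and at 30 months were lowest, with 160 and 109 counts, and 15 months replicate 5 was the lowest of its age. These are the 3 libraries of steepest GC dependence, and the mature arms of mir-20a have a GC content of 40.0%, below the median of 50% over the 303 tested precursors with a matched mature sequence. With a correction for GC content its trend, described below, was −0.41 per 10 months (adjusted p = 0.0244, edgeR). Other members below that median were mir-18a (49.0%), mir-19a (34.8%) and mir-19b-1 (43.5%), with trends of −0.11, −0.10 and −0.03. Over the 303 precursors Pearson's r between GC content and trend slope was 0.057. Over all libraries the coefficient of variation of mir-20a was 48.8%, against a median of 20.8% over the 152 tested precursors of at least 10 CPM.

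mir-18a, whose seed differs from that of mir-17 by 1 base, had a narrow range. It held 83.0, 83.3, 80.1, 85.5 and 76.7 CPM at 2 months, and 65.3, 83.2, 76.8, 77.0 and 100.3 CPM at 9 months. At 15 months the values were 83.0, 63.4, 87.3, 75.6 and 82.8 CPM. At 24 months they were 81.0, 65.3, 66.1, 64.9 and 63.9 CPM, and at 30 months 76.4, 56.0, 66.2, 66.7 and 71.5 CPM. All 5 libraries of 30 months and 4 of the 5 of 24 months lay below the lowest of 2 months. The 30-month and 2-month groups did not overlap, as was so for 10.7% of tested precursors (5.03% with the old group lower). Its coefficient of variation was 13.4%.

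mir-17 held 192, 152, 268, 335.3 and 224 CPM at 2 months, and 213, 86.0, 218, 112 and 230.8 CPM at 30 months. At 9 months it ranged from 175 to 260 CPM, at 15 months from 140 to 251 CPM and at 24 months from 102 to 250 CPM. Replicates 2 and 4 of 30 months lay below every 2-month library, while the other 3 lay within the 2-month range. mir-19a, which shares its seed with mir-19b-1, ranged from 89.4 to 132 CPM at 2 months and from 52.9 to 122 CPM at 30 months. Its lowest value was 42.1 CPM in 24 months replicate 2, and its groups overlapped at every age.

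mir-19b-1 and mir-92a-1 were not at their lowest in the libraries lowest in mir-20a. mir-19b-1 was at 223.5 CPM in 24 months replicate 2, below every 2-month library (lowest 248.5 CPM), and at 299 CPM in 30 months replicate 2, within its range of 165 to 398 CPM over all libraries. mir-92a-1 was highest of all in 24 months replicate 2, at 32703 CPM. Its coefficient of variation of 9.46% was the smallest of the 6.

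Against 2 months, none of the 6 passed the test at any later age. In edgeR's quasi-likelihood test, with Benjamini-Hochberg adjustment over all tested precursors and a threshold of 0.05, 0 of 6 members were called at 9 months (background 2.07% of tested precursors), at 15 months (1.48%), at 24 months (12.1%) and at 30 months (14.2%), or in the test for any difference among the 5 ages (7.99%). At an unadjusted p up to 0.05 there were 0 members at 9 months (7.69% of tested precursors), at 15 months (5.92%) and in the test of any age (20.4%). There was 1 at 24 months (mir-18a, beside 24.6%) and 2 at 30 months (mir-18a and mir-20a, beside 26.6%). DESeq2 and limma-voom also called 0 in each. At 30 months, mir-20a stood at 43.7% of its 2-month level, a log2 change of −1.19 (SE 0.48, edgeR adjusted p = 0.102), the largest of the 6. mir-18a changed by −0.28 (SE 0.12, adjusted p = 0.137), mir-17 by −0.45 (SE 0.26, adjusted p = 0.273) and mir-19a by −0.33 (SE 0.26, adjusted p = 0.461) in the same edgeR fit. Without 30 months replicate 2 these log2 changes were −0.98 for mir-20a, −0.24 for mir-18a, −0.30 for mir-17 and −0.21 for mir-19a (edgeR adjusted p of 0.183, 0.261, 0.492 and 0.685). mir-19b-1 was at −0.02 (95% interval −0.45 to 0.41) and mir-92a-1 at 0.04 (−0.17 to 0.26), so both intervals exclude a log2 change of 1 in either direction. The median of the 6 was −0.30, beside −0.04 over all tested precursors. 5 of 6 lay below 0, beside 55.0% of all tested.

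**Figure D2:**
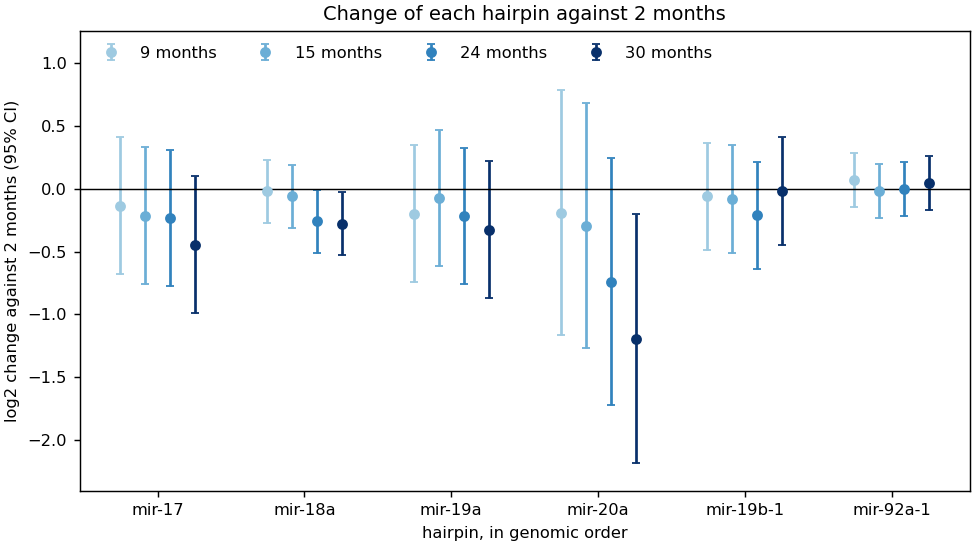
Log2 change of each hairpin at 9, 15, 24 and 30 months against 2 months (edgeR, 25 libraries in 1 fit), with points for estimates and bars for 95% intervals. The intervals of mir-20a at 30 months and of mir-18a at 24 and 30 months lie below 0 before adjustment, and those of mir-92a-1 are the narrowest.

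Over the whole age range, mir-18a and mir-20a were called lower in the main fit. In edgeR's linear trend in months, 2 of 6 members were called, both lower, where 19.8% of all tested precursors were called and 9.17% were called lower. At an unadjusted p up to 0.05 there were also 2 of 6 members, beside 32.5% of tested precursors, so the members were near the background share. mir-20a fell by 0.41 on the log2 scale per 10 months (SE 0.15, adjusted p = 0.0449 in edgeR), and mir-18a fell by 0.11 (SE 0.04, adjusted p = 0.0305 in edgeR). mir-17 (−0.14, adjusted p = 0.232), mir-19a (−0.10, adjusted p = 0.433), mir-19b-1 (−0.03, adjusted p = 0.792) and mir-92a-1 (0.0017, adjusted p = 0.988) did not pass the edgeR test. Both calls were lost with upper quartile factors (mir-20a −0.39, adjusted p = 0.0541, and mir-18a −0.08, adjusted p = 0.185, edgeR), with no filter on low counts, with a filter of 10 CPM and without the libraries of lane 3. Both slopes stayed below 0 under every scaling, but scaling by library totals raised the median slope of all precursors from −0.02 to 0.09, gave −0.0027 for mir-18a (adjusted p = 0.953, edgeR) and turned mir-19a and mir-19b-1 above 0. The split of all trend calls was 36 higher and 31 lower with TMM, 38 and 18 with upper quartile factors, and 80 and 9 with totals.

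The 2 trend calls also depended on single libraries. Without both libraries lowest in mir-20a, a setting chosen after seeing the data, mir-20a was at −0.28 (adjusted p = 0.110, edgeR) and mir-18a at −0.08 (adjusted p = 0.117). Leaving out 1 library at a time, mir-18a kept its edgeR call in 13 of 25 fits, with adjusted p from 0.0246 to 0.106, and lost it without 2 months replicate 1, 2 or 4, 9 months replicate 5, 15 months replicate 2, 24 months replicate 2, 3, 4 or 5, or 30 months replicate 2, 3 or 5. mir-20a kept its call in 7 of 25, with adjusted p from 0.0338 to 0.0972 in edgeR, namely without 9 months replicate 3, 15 months replicate 1, 3 or 4, 24 months replicate 1 or 3, or 30 months replicate 1, and lost it without any other library. These fits kept the tested precursors of all 25 libraries, a choice made after seeing the data. With the filter applied again in each fit, mir-18a lost its call in 22 of 25 and mir-20a in 19 of 25.

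Differences between 30 and 2 months were also taken within lanes. Of the 4 lanes with libraries of both 2 and 30 months, mir-20a was lower at 30 months in all 4, by log2 differences of −1.23, −0.89, −3.59 and −1.38 in lanes 5, 6, 7 and 8. The differences of mir-18a were −0.32, −0.12, −0.61 and −0.21 in the same lanes. As its 2 groups did not overlap, no other sign was possible for mir-18a. mir-17 was also below 0 in all 4 (−0.44, −0.28, −1.96 and −0.04), whereas mir-19a was at 0.07 in lane 5 and below 0 in the other 3. Each lane held 1 library of either age except lane 6, with 2 of 30 months, so these are values without a test. With lane as a term, mir-18a stayed called in the trend and mir-20a had an adjusted p of 0.0566 in edgeR.

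Ratios between members in 1 library do not depend on how libraries are scaled. They were not corrected for GC content, which is 51.2% in the mature arms of mir-17 and 40.0% in those of mir-20a. The ratio of mir-17 to mir-20a, which share a seed, was 3.03, 2.90, 2.26, 2.74 and 2.65 in the libraries of 2 months. It was 3.12, 8.53, 6.70, 5.03 and 3.84 at 30 months, so that every library of 30 months exceeded every one of 2 months. The log2 ratio was 0.92 higher (SE 0.27, n = 5 against 5), with p = 0.00794 in a two-sided exact permutation test, the smallest that 5 against 5 allow. Without 30 months replicate 2 the groups still did not overlap and the difference was 0.73 (SE 0.25, n = 4 against 5, exact permutation p = 0.00794, adjusted p = 0.119). Adjusted over the 15 pairs of members the exact p was 0.119, and 0 of 15 ratios passed at 30 against 2 months. The smallest exact p reached by 1 ratio alone cannot pass the threshold after this adjustment. At an unadjusted p up to 0.05, 4 ratios stood out, namely mir-17/mir-20a, mir-18a/mir-92a-1, mir-19a/mir-20a and mir-20a/mir-92a-1. At 24 months the ratio of mir-17 to mir-20a was 2.62, 10.2, 2.77, 7.70 and 3.54, with 2 libraries far above the 3 others. In the 3 libraries of steepest GC dependence it was 10.2 (24 months replicate 2), 8.53 (30 months replicate 2) and 4.96 (15 months replicate 5). The part of GC content in these ratios was not tested. Within lanes 5, 6, 7 and 8 the log2 ratio was higher at 30 than at 2 months by 0.79, 0.61, 1.64 and 1.34. As the groups did not overlap, no other sign was possible within a lane, so these signs are no further check.

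Over all 25 libraries, 6 of the 15 log2 ratios followed age (permutation test with 100000 resamples of Pearson's r, adjusted over 15). That of mir-17 to mir-20a had r = 0.592 (adjusted permutation p = 0.0255) and a Spearman's rho of 0.581 (adjusted permutation p = 0.0445). The other 5 were mir-18a/mir-20a, mir-19a/mir-20a, mir-20a/mir-19b-1, mir-20a/mir-92a-1 and mir-18a/mir-92a-1, the last with r = −0.516 (adjusted permutation p = 0.0301), and by Spearman's rho these 5 missed the threshold. 5 of the 6 held mir-20a, with mir-20a lower against its partner at older ages. These 5 share the counts of mir-20a, so they are not independent of each other or of its trend. Without both libraries lowest in mir-20a, which are also the 2 farthest from the median of the mir-17/mir-20a ratio, 0 of 15 passed and r for this ratio was 0.547 (adjusted permutation p = 0.0907). It stayed past the threshold in 23 of 25 leave-one-out repeats, and was lost without 2 months replicate 3 or 30 months replicate 2 (largest adjusted permutation p = 0.0772). As deviations from lane means its r was 0.621 (adjusted permutation p = 0.00600), also a setting chosen after seeing the data.

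**Figure D3:**
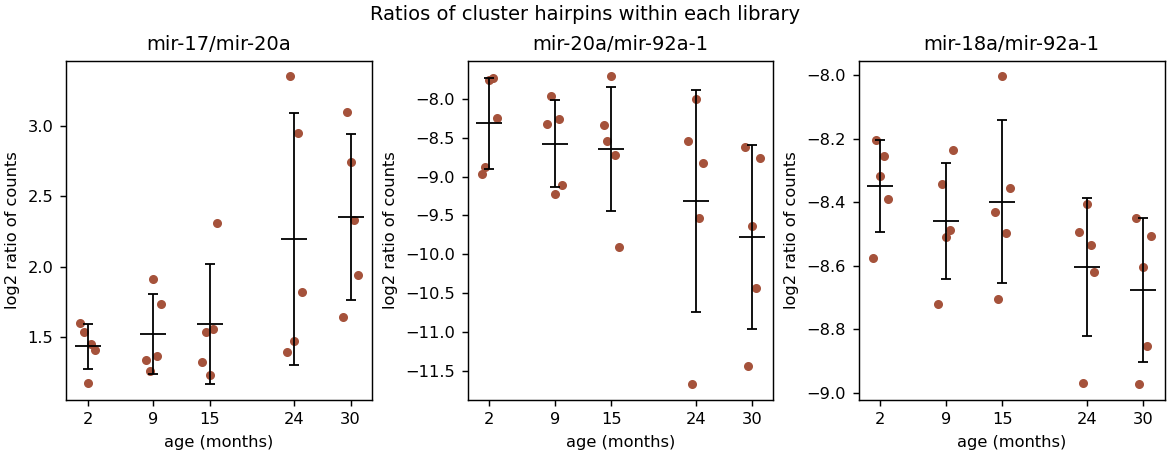
Log2 ratio of counts of 2 cluster hairpins in each library against age in months, with points for libraries and bars for mean and SD of 5. The mir-17/mir-20a ratio lies between 1.18 and 1.60 at 2 months and between 1.64 and 3.09 at 30 months.

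Among the 5 members other than mir-92a-1, mir-20a went from 10.9% ± 2.90 of their counts at 2 months to 5.69% ± 3.12 at 30 months (SD, n = 5 each). mir-18a stayed at 10.3% ± 1.08 and 10.6% ± 0.931, and mir-19b-1 was at 35.8% ± 8.12 and 43.6% ± 12.5. These are means of the libraries and were not tested.

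mir-17 and mir-20a varied together from library to library more closely than any other 2 members, though by little once lane means were subtracted. Over 25 libraries Pearson's r of their log2 CPM was 0.880 and Spearman's rho 0.815, both at the smallest adjusted permutation p the 100000 resamples gave (0.00015 over 15 pairs), and r was 0.752 without the 2 libraries farthest from the median of mir-17. After subtraction of each age's mean r was 0.882. After subtraction of each lane's mean, a setting chosen after seeing the data, it was 0.885. There r was 0.877 for mir-17 with mir-19a and 0.846 for mir-19a with mir-20a. mir-19a correlated with mir-17 (r = 0.675, rho = 0.489) and with mir-20a (r = 0.695, rho = 0.462), each with an adjusted permutation p of 0.00165 for r and 0.0632 for rho. Without the 2 farthest libraries these fell to 0.374 (permutation p = 0.0779) and 0.352 (permutation p = 0.0994), so neither reached 0.05 there. Both relations passed in 25 of 25 repeats that left out 1 library. mir-18a and mir-20a had r = 0.537 (adjusted permutation p = 0.0199) and rho = 0.424 (0.0904), with r at 0.476 without the 2 farthest libraries and 0.297 within ages, and it was lost without 30 months replicate 2 (r = 0.399, adjusted permutation p = 0.0973). These are 4 of the 15 pairs, and without both libraries lowest in mir-20a only mir-17 with mir-20a remained of them. mir-92a-1 ran the other way against mir-17 (r = −0.532, rho = −0.568, adjusted permutation p = 0.0199 and 0.0281), which was lost without 24 months replicate 2 (r = −0.426, adjusted permutation p = 0.101) and without both libraries lowest in mir-20a (r = −0.449, adjusted permutation p = 0.133). It also ran against mir-19a (r = −0.470, rho = −0.391, adjusted permutation p = 0.0462 and 0.105). That relation passed in 15 of 25 leave-one-out repeats, and without both lowest libraries r was −0.285 (adjusted permutation p = 0.294). All pairs share the scaling of each library.

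**Figure D4:**
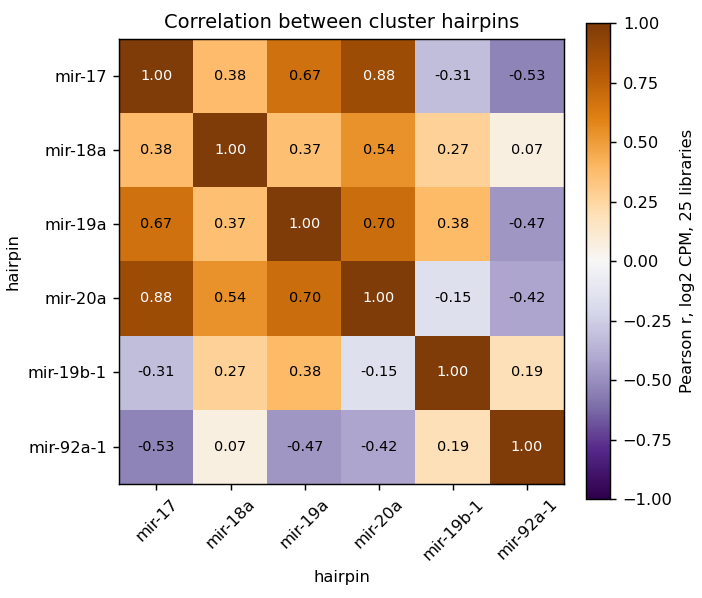
Pearson's r of log2 CPM between each pair of cluster hairpins over 25 libraries, on a colour scale from −1 to 1. mir-17, mir-19a and mir-20a form a block with r of 0.675 to 0.880, and mir-92a-1 is negative against all 3.

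Other copies of the same mature sequences bear on mir-19b-1 and mir-92a-1. mir-19b-2 on the X chromosome gives the same mature sequence as mir-19b-1, and the counts of the 2 hairpins stood in a ratio of 0.944 to 1.03 in every library, so reads of these hairpins cannot be told apart. mir-92a-1 and mir-92a-2, with the same main arm, stood in a ratio of 2.84 to 3.40. The level given for either member is therefore uncertain as to which hairpin it came from.

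The paralogous clusters gave no call. Of the mir-106a-363 cluster, 5 of 6 hairpins were tested (mir-18b was not) and 0 passed edgeR in any comparison with 2 months or in the trend. Of the mir-106b-25 cluster, which lies in an intron of Mcm7 and supplies most counts with the mir-17 seed, 0 of 3 passed. mir-93 of that cluster held 2417, 2231, 4447, 5446 and 3350 CPM at 2 months and 2537, 770, 3626, 1546 and 3055 CPM at 30 months. Its trend was −0.22 per 10 months (SE 0.10, adjusted p = 0.114, edgeR). Its lowest library was 30 months replicate 2, as for mir-17, and without both libraries lowest in mir-20a its trend was −0.11 (adjusted p = 0.336, edgeR).
miR-93-5p and miR-106b-5p share the seed of miR-17-5p, and differ from it at 4 of 23 and 3 of 21 positions. mir-25, with the seed of mir-92a, was at 0.04 per 10 months (SE 0.04, adjusted p = 0.481, edgeR) and at 18122 to 27270 CPM.

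2 scarce hairpins with the seed of mir-92a moved in opposite directions. mir-32 fell by 0.52 on the log2 scale per 10 months (SE 0.14, adjusted p = 0.00844, edgeR). It held 9.46, 8.57, 15.2, 9.76 and 10.2 CPM at 2 months and 5.19, 0.276, 3.83, 2.00 and 4.97 CPM at 30 months, all lower. At 30 months its log2 change was −1.70 (SE 0.45, adjusted p = 0.0163, edgeR). Its lowest value is 3 counts, in 30 months replicate 2. Without both libraries lowest in mir-20a it kept its calls, at −0.40 per 10 months (adjusted p = 0.0156, edgeR) and −1.39 at 30 months (adjusted p = 0.0168, edgeR). Its mature arms have a GC content of 30.2%. mir-92b rose by 0.37 per 10 months (SE 0.09, adjusted p = 0.00718, edgeR), with means of 2.95 ± 0.291 CPM (SD, n = 5) in young and 5.06 ± 1.40 CPM in the 30-month libraries. Against 2 months it was called higher at 24 months (log2 change 1.12) but not at 30 months (0.76). Its 24-month mean was 6.73 ± 4.32 CPM, with 14.2 CPM in replicate 4, the library with the fewest counts (4.884 M). mir-367 was at 0 in every library.

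**Figure D5:**
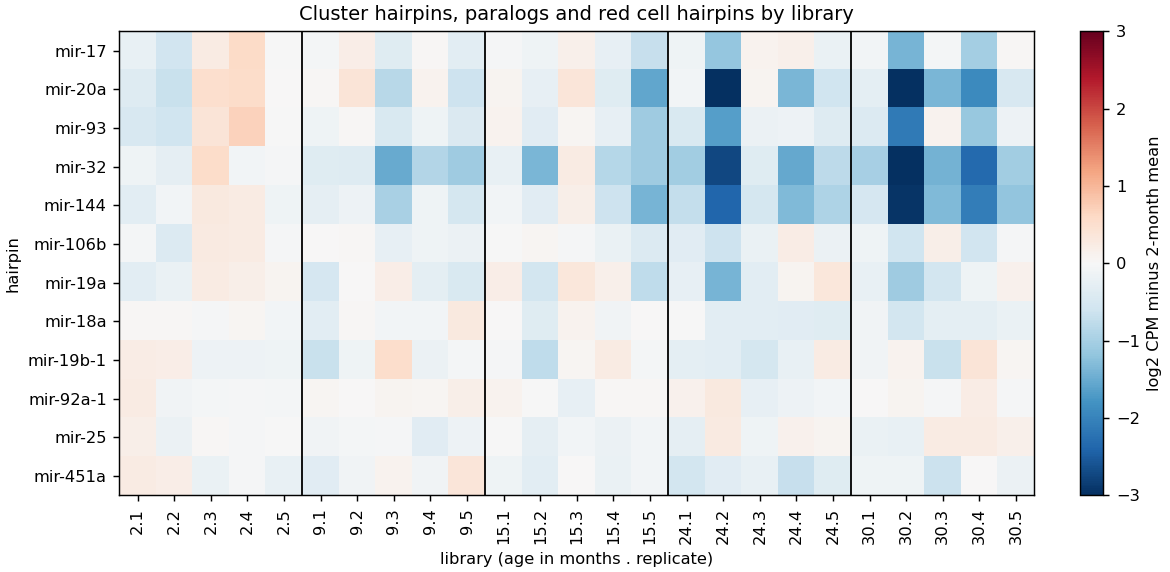
Log2 CPM minus the 2-month mean (colour, limited to −3 and 3) of the cluster hairpins, paralogs and red cell hairpins in each library, ordered by age and replicate. mir-17, mir-20a, mir-93, mir-32 and mir-144 are low together in 24 months replicate 2 and 30 months replicate 2, where mir-92a-1 is not.

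Precursors most like each member over the 25 libraries were taken from the tested precursors of at least 10 CPM, without the members, mir-19b-2 and mir-92a-2, by Pearson's r of log2 CPM, as a description. For mir-17 they were mir-93 (r = 0.963), mir-15a (0.956) and mir-16-2 (0.942). For mir-20a they were mir-101b (0.983), mir-101a (0.973) and let-7i (0.957), each higher than its r of 0.880 with mir-17. mir-18a was most like mir-98 (0.637), mir-19a like mir-301a (0.745), mir-19b-1 like mir-486a (0.660) and mir-92a-1 like mir-361 (0.635). After subtraction of each age's mean, r was 0.966 for mir-17 with mir-93, 0.979 for mir-20a with mir-101b, 0.390 for mir-18a with mir-98, 0.740 for mir-19a with mir-301a, 0.671 for mir-19b-1 with mir-486a and 0.670 for mir-92a-1 with mir-361. Without both libraries lowest in mir-20a these pairs had r of 0.926, 0.963, 0.525, 0.511, 0.709 and 0.675 in the same order. All these values share the libraries, their depth and their scaling.

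Markers of blood cells moved with age beside these results. The summed level of the erythroid list (mir-451a, mir-144, mir-486a and mir-486b) was 717002 to 858407 CPM at 2 months and 501702 to 778398 CPM at 30 months. mir-486a and mir-486b were nearly equal, with 2-month means of 338305 and 338068 CPM and 30-month means of 275461 and 275245 CPM. The same reads may therefore enter this sum from both, so it is not a red cell level. Without TMM scaling, the list's mean share of library counts was 68.6% (SD 1.79) in the youngest group. In the oldest group it was 66.0% (SD 3.77). This share also holds both hairpins and was not tested. In the edgeR trend 1 of the 4 erythroid hairpins fell, mir-144 (−0.49 per 10 months, SE 0.11, adjusted p = 0.0018), and mir-451a was at −0.12 (adjusted p = 0.0561). Without both libraries lowest in mir-20a the trend of mir-144 was −0.39 (adjusted p = 0.00389, edgeR). Against 2 months, 2 of the 4 were called lower at 24 months and 1 at 30 months. Of all tested precursors, 12.1% were called at 24 months, 14.2% at 30 months and 19.8% in the trend, in either direction. The myeloid list (mir-223, mir-23a, mir-27a and mir-24-2) rose in all 4 at 24 and 30 months and in the trend, with a summed level of 179 to 216 CPM at 2 months and 286 to 435 CPM at 30 months. In the lymphoid list 0 of 5 passed edgeR, while mir-126a of platelets and endothelium fell in the trend (−0.36 per 10 months, adjusted p = 0.0293, edgeR), a call lost without both libraries lowest in mir-20a (−0.28, adjusted p = 0.110, edgeR). Other tissues showed 0 of 2 tested muscle hairpins called in the trend, 1 epithelial hairpin higher and 2 lower of 3, and the liver hairpin mir-122 at no more than 1.13 CPM. The part of these markers in the values of mir-20a and mir-18a was not tested.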

How the data were processed

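Per the labels' protocols, libraries of mouse blood RNA were made with a TruSeq small RNA kit. Raw counts were deposited by the authors for each microRNA hairpin, in 1 table with whole numbers that differ in total between libraries. The submitters' processing notes list SAMtools 1.3.1-9, Trimmomatic 0.36 and bcl2fastq 1.8.4 but no roles. Aligner, build, strand use and the rule for reads that fit several hairpins: not given in the sources used here. Precursor names were matched to RefSeq for 1183 of 1193.

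Counts were tested with edgeR 4.0.16 (R 4.3.3): the default filter on low counts by age, TMM factors, robust quasi-likelihood fits of all 25 libraries, and Benjamini-Hochberg adjustment over all tested precursors. CPM are TMM-scaled. Standard errors were taken as the size of the log2 change divided by the square root of F, and log2 CPM used a prior count of 2. Ratios between members used log2 of counts with a pseudocount of 0.5 on each, with exact permutation tests at 5 against 5 and 100000 resamples over age. Tests were two-sided and checked on simulated data. limma 3.58.1 (voom) and DESeq2 1.42.0 served as alternatives, with upper quartile, RLE and total-count scaling, other filters, lane and GC content (89.6% of tested precursors had a mature sequence). Where libraries were left out, the set of tested precursors was held fixed; this was chosen after a first version, with the filter applied again, had lost more calls, and both are given.

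The members, lists and rules were chosen with earlier results of these data known. Named were the 6 members, their paralogs and seed mates, and for each member the 3 tested precursors of at least 10 CPM most correlated with it, leaving out mir-19b-2 and mir-92a-2. The blood cell and tissue lists are as given in the report. Replicates were compared pairwise before averaging: over 50 pairs of the same age, chi-square per degree of freedom was at least 124.9, above sampling noise. Numbers of replicates are accession order only. The kit adds no molecular identifiers, so depth limits cover counting error only.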

Additional observations from a re-analysis of the deposited data

Results flagged for a closer look

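2 of the 30 groups of 5 libraries held a library far from the others, where chance flags about 1 in 20 groups. mir-18a in 24 months replicate 1 was at 81.0 CPM, far above the 4 other libraries of 24 months, which lay between 63.9 and 66.1 CPM (its gap is 0.873 of the group's range). mir-92a-1 in 2 months replicate 1 was at 31683 CPM, above the 24542 to 26104 CPM of the 4 others of 2 months (0.781 of the range).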

How the results depend on the processing

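In all 11 or 12 alternatives other than leaving out 1 library, the count of members called stayed at 0 at any age, 9, 15 and 30 against 2 months; at 24 months it was 1 with library totals (mir-92a-1, 0.35, adjusted p = 0.0249, edgeR). For the trend, 2 members stayed called with RLE factors, DESeq2, limma-voom and GC correction. The count was 1 with lane as a term (mir-18a; mir-20a at −0.42) and with library totals (mir-92a-1 at 0.11). It was 0 with upper quartile factors, no filter, a filter of 10 CPM, without the lane 3 libraries, without the 2 month group, without the 30 month group and without both libraries lowest in mir-20a. Slopes of mir-18a there were −0.085, −0.12, −0.094, −0.10, −0.11, −0.12 and −0.084, and of mir-20a −0.39, −0.42, −0.39, −0.42, −0.46, −0.33 and −0.28; with totals they were −0.0027 and −0.30. The cause was not tested. Changes of sign were all small and not called, except mir-92a-1 with totals. With totals the log2 values against 2 months were 0.079 (mir-18a) and 0.030 (mir-19b-1) at 9 months; 0.062 (mir-18a), 0.040 (mir-19a), 0.033 (mir-19b-1) and 0.12 (mir-92a-1) at 15 months; 0.16 (mir-17), 0.11 (mir-18a), 0.16 (mir-19a) and 0.16 (mir-19b-1) at 24 months; and 0.21 (mir-19b-1) at 30 months; with trends of 0.013 for mir-19a and 0.077 for mir-19b-1. The totals raise the median of all precursors at 30 months from −0.04 to 0.20 and change the split of calls from 31 higher and 17 lower to 51 and 6. With no filter mir-18a was at 0.0056 at 9 months and 0.031 at 15 months, mir-19a at 0.0087, mir-19b-1 at 0.0030 and mir-92a-1 at 0.074 at 15 months, and mir-92a-1 at 0.013 at 24 months and −0.0081 in the trend. Without the lane 3 libraries mir-18a was at 0.064 and mir-19b-1 at 0.087 at 9 months; mir-18a at 0.042, mir-19a at 0.059, mir-19b-1 at 0.081 and mir-92a-1 at 0.023 at 15 months; mir-92a-1 at 0.095 at 24 months and mir-19b-1 at 0.039 at 30 months. With lane as a term mir-18a was at 0.012 at 9 months and 0.0032 at 15 months, and mir-92a-1 at 0.0098 at 15 months, 0.0020 at 24 months and −0.0038 in the trend. Elsewhere mir-92a-1 was at 0.091 (upper quartile), 0.099 (filter of 10 CPM) and 0.028 (only the compared ages) at 24 months, 0.021 at 15 months (only the compared ages), and in the trend at −0.0038 with RLE, −0.0038 with DESeq2, −0.0036 with GC correction, −0.012 without the 30 month group and −0.0053 without both lowest libraries. mir-19b-1 was at 0.036 (upper quartile), 0.033 (GC correction) and 0.052 (only the compared ages) at 30 months, and in the trend at 0.0038 (upper quartile) and 0.016 (without the 2 month group). Of the ratios with age, 0 of 15 passed without the 2 month group and without both lowest libraries. Of the positive correlations, 1 of 15 passed without both lowest libraries.

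Leaving out 1 library at a time, the members called in the trend ranged from 0 to 2 and the ratios from 0 to 6, and the positive correlations past the threshold from 4 to 6; 0 ratios passed without 2 months replicate 3 and without 30 months replicate 2, and 1 passed without replicate 4 of either of these ages. With the filter applied again, which tested 340 to 349 precursors, the trend calls were lost in 22 of 25 for mir-18a and 19 of 25 for mir-20a. Estimates that changed sign ranged as follows: at 9 months mir-17 −0.26 to 0.030, mir-18a −0.15 to 0.046 and mir-19b-1 −0.25 to 0.058; at 15 months mir-18a −0.10 to 0.042, mir-19a −0.19 to 0.073, mir-19b-1 −0.14 to 0.081 and mir-92a-1 −0.050 to 0.034; at 24 months mir-19a −0.36 to 0.0065 and mir-92a-1 −0.047 to 0.095; at 30 months mir-19b-1 −0.16 to 0.17 and mir-92a-1 −0.028 to 0.13; in the trend mir-19b-1 −0.065 to 0.020 and mir-92a-1 −0.011 to 0.031. Each of these changed sign with some library left out and none was called. No paired analysis was possible because the labels number the animals separately and give no replicate number shared between ages. Libraries of 30 months have the fewest counts on average. The lowest count of mir-20a, 109, was in 30 months replicate 2, with a total of 10.44 M, while the smallest total was 4.884 M, in 24 months replicate 4.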
